A study of Mus musculus with 4 samples.

Results

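Ion channel genes were looked up in 2 lists of genomic regions enriched in DNMT3B ChIP-seq of lung metastases. Members were all mouse genes whose symbol begins with Kcn or Cacna1, or with Scn followed by a number and the letter a. The rule took 118 symbols, of which 114 were protein-coding genes and 4 were noncoding transcripts. The 114 are set here against all 21883 protein-coding genes of the reference gene table. The rule reaches beyond voltage-gated channels. Of the 114 genes, 60 encode pore subunits of voltage-gated potassium, calcium or sodium channels, and 54 encode other potassium channels or auxiliary subunits.

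DNMT3B was mapped by chromatin immunoprecipitation and sequencing (ChIP-seq) in 4T1 cells, a mammary tumour line of BALB/c mice, taken from lung metastases. There were 2 DNMT3B ChIP libraries and 2 input libraries made without antibody, and each kind carried the lung labels 3 and 5. The labels name no treatment, age or genotype, and do not say whether the lungs came from separate mice. Values are positions of called regions in lists for the whole series. No value belongs to a library, the depth is unknown, and no spread between replicates and no test across libraries could be had. The MACS list holds 1704 distinct narrow regions, and the SICER list holds 8242 broad islands.

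DNMT3B is a DNA methyltransferase that places methyl groups on cytosines that precede a guanine, and in mouse embryonic stem cells it is known to bind the bodies of transcribed genes. Voltage-gated channels open on a change of membrane potential and let potassium, calcium or sodium ions pass. They carry the electrical signals of neurons, heart and skeletal muscle. Many of their genes are long, so counts of channel genes with a region are set beside numbers for all genes of the same lengths where these were computed. Shares of genes with several islands, island positions and widths, and promoter CG counts were not adjusted for length.

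The stretches upstream of these gene starts differ widely in CG, the pair of bases on which DNMT3B acts, and examples are shown for that reason. The 250 bases before the gene start were taken from RefSeq promoters of build GRCm38.p6 for 4 of the 7 genes with a MACS region, and for Scn11a, a sodium channel gene of sensory neurons with an island across its start. They are written 5′ to 3′ along the gene, with each CG in capitals. CG was the motif searched. It reads the same on both strands, and 92.7% of the 17485 promoters of protein-coding genes with a sequence hold at least 1 in these 250 bases. The deposited lengths of Scn11a and Kcng4 differed from the table by at most 2 bp. For Kcnj4 the deposited transcript was shorter, with 21528 bp against 32286 bp in the table, so its deposited start can be another one. For Kcnk10 and Kcnk12 the SICER list gives no gene position.
Scn11a, chr9:119825457-119825706, minus strand: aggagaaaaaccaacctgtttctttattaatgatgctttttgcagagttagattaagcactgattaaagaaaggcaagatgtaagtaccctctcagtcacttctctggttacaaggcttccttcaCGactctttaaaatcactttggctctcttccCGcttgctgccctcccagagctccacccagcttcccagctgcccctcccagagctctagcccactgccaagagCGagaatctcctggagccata
Kcng4, chr8:119635681-119635930, minus strand: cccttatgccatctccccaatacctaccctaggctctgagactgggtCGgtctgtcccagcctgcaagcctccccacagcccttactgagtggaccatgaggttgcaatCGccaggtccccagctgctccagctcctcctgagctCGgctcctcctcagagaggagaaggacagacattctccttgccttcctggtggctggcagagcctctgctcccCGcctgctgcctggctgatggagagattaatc
Kcnk10, chr12:98578214-98578463, minus strand: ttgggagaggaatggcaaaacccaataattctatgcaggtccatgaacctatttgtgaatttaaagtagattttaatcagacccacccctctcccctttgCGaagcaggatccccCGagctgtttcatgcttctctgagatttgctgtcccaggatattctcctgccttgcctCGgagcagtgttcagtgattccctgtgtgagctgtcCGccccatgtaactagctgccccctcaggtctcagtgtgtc
Kcnk12, chr17:87797995-87798244, minus strand: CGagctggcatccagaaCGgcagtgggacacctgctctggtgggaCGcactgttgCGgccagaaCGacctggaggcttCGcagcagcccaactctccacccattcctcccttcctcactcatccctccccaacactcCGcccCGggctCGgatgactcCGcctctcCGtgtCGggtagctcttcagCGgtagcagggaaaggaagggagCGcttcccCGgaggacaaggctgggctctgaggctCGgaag
Kcnj4, chr15:79505242-79505491, minus strand: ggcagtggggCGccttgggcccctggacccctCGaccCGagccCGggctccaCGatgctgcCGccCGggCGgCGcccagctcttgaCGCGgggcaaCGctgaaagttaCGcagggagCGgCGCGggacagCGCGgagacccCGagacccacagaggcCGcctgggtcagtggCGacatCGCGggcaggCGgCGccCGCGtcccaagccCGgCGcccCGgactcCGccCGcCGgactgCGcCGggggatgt

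Scn11a held 3 CG in this stretch, Kcng4 and Kcnk10 held 4 each, Kcnk12 held 16 and Kcnj4 held 35. Over the 84 channel genes with such a sequence the median was 7.5, against 10 over all genes. Channel genes with an island had a median of 7.5 CG (18 genes), as did those without one (66 genes). Among all genes the medians were 15.0 with an island and 8 without. The gap in medians seen among all genes was thus not seen between these channel genes. The share with at least 10 CG was 44.4% in channel genes with an island and 37.9% in those without. Among all genes these shares were 71.4% and 46%. No test of this was made. The sequences under the regions themselves are not shown, since no genome of the positions' build was used.

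The broad islands named 30 of the 114 channel genes (26.3%), against 17.2% of all protein-coding genes. The 30 genes carried 86 islands. Channel genes had a median length of 47.4 kb, against 17.2 kb for all genes. When each channel gene was given the share of all genes in its own decile of gene length, 21.8 genes would carry an island, so the observed number was 1.37 times this length-standardised number. By number of islands, 86 were observed where 53.7 corresponded to all genes of the same lengths, a ratio of 1.60. The surplus lay in the fifth to ninth deciles, with 68 islands against 24.4. In the longest decile 17 stood against 23, and in the 4 shortest 1 against 6.23. With the share taken within chromosome and length class, the ratio for genes was 1.25. These ratios are descriptions of called regions and carry no p-value.

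The narrow MACS regions showed no such surplus. They named 7 of the 114 channel genes (6.14%), and 6.14% of all protein-coding genes. The length-standardised number was 7.94, a ratio of 0.882. Both lists named 4 channel genes, among them Cacna1a, Kcng4 and Kcnj4, and 2.46% of all protein-coding genes. These 4 were 57.1% of the channel genes with a MACS region and 13.3% of those with an island. Among all genes the shares were 40.0% and 14.3%. At least 1 list named 33 channel genes (28.9%), against 20.9% of all protein-coding genes, shares that were not set for length. In the other 81 channel genes neither list named a region. By its name the SICER list is a top selection, and what was left out is not known. It also holds only islands within 10 kb of a gene. A gene with no listed island may thus still carry one.

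Channel genes of middling length had islands more often than all genes of these lengths, and the shortest had them less often. The longest stood near the share of all genes. Of 53 genes in the fifth to ninth deciles of length, 11.7 to 108 kb, 23 had an island (43.4%), against 21.0% of all genes of these lengths. Their length-standardised number was 11.2. In the longest decile, over 109 kb, 6 of 36 channel genes had an island (16.7%), against 19% of all genes and a length-standardised number of 6.84. In the 4 shortest deciles, up to 11.7 kb, 1 of 25 did (4%), against 12% of all genes. That gene was Kcnk4, a leak channel gene. These length classes were joined after the values had been seen. Among the 20 longest channel genes, all in the longest decile, 4 had an island, where 19% of all genes of that decile had one. The 5 longest with no region in either list were Kcnip4 (1135.6 kb), a modulator of Kv channels, Kcnma1 (712.8 kb), the large-conductance calcium-activated channel, Cacna1c (610.1 kb), the main calcium channel of heart muscle, Kcnq5 (564.3 kb) and Kcnd2 (514.5 kb).

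**Figure D1:**
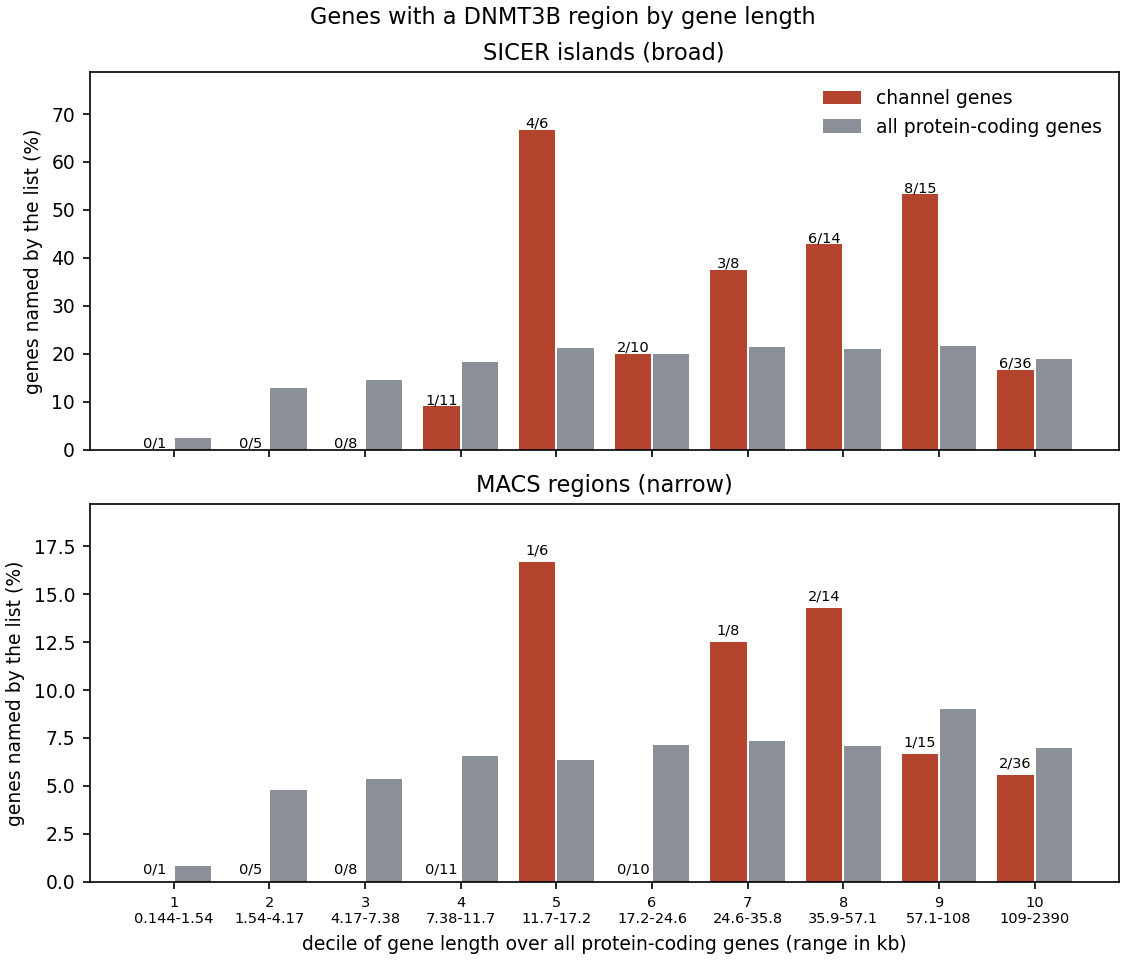
Share of genes named by a SICER island (upper panel) or a MACS region (lower panel), in percent, by decile of gene length in kb, for channel genes (red, with counts) and all protein-coding genes (grey). Channel genes of 11.7 to 108 kb carried islands more often than all genes of that length except in the sixth decile, where both stood at 20%, and the 36 longest did not (16.7% against 19%).

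Of the voltage-gated pore subunits, 18 of 60 genes had an island (30%), against a length-standardised number of 11.7, and 3 had a MACS region, against 4.30. Of the other 54 genes, 12 had an island (22.2%), against 10.1, and 4 had a MACS region, against 3.64. With the share taken within chromosome and length class, the island ratio was 1.45 for the voltage-gated pore subunits and 1.04 for the other 54 genes. Calcium channel alpha-1 genes carried islands in the highest share of the 7 families, with 6 of 10 and a length-standardised number of 2. Calcium- or sodium-activated potassium channels followed with 4 of 8, against 1.60. The tandem-pore leak channels had 4 of 14, against 2.67, sodium channel alpha genes 3 of 10, against 1.97, and Kv pore subunits 9 of 40, against 7.75. Inward rectifiers had 2 of 15, against 2.88, and auxiliary subunits 2 of 17, against 2.98. The counts in single families are small, and no family was tested against another.

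**Figure D2:**
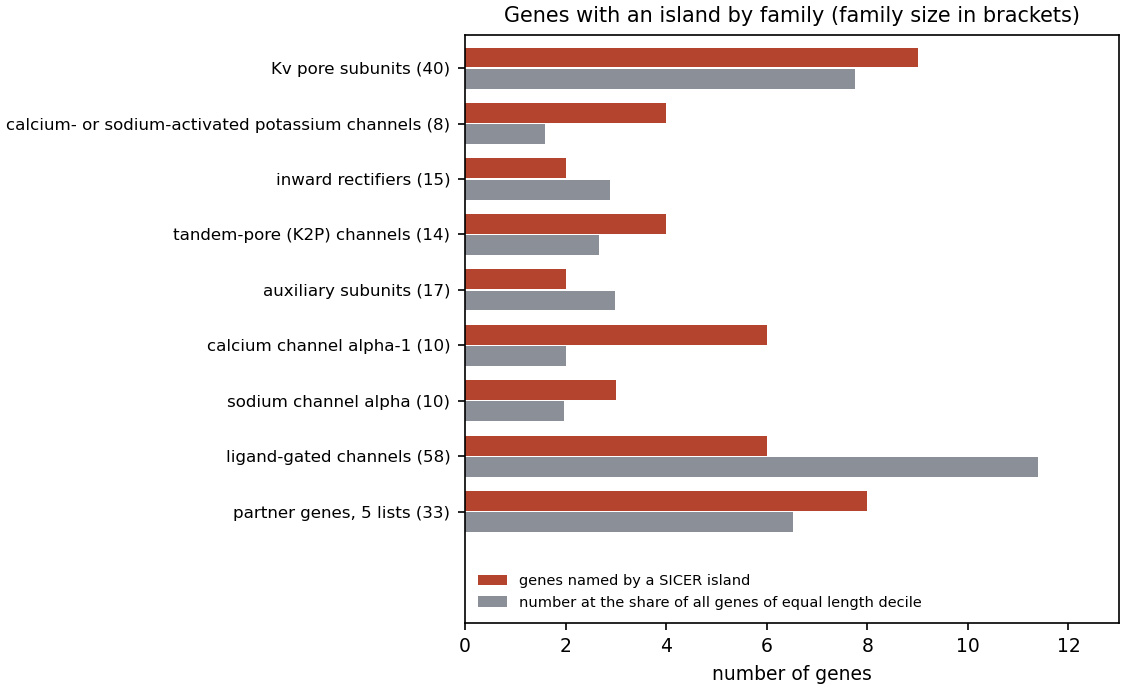
Number of genes with a SICER island in each family (red) and the number that corresponds to the share of all protein-coding genes of the same deciles of length (grey). The calcium channel alpha-1 family shows the widest gap among the channel families, 6 against 2, and the ligand-gated channels lie below their grey bar, 6 against 11.4.

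The Kv pore subunits with islands included genes of the Kcng, Kcnh, Kcnq and Kcnv types, which take in silent partner subunits and channels of cardiac repolarisation. None of the 8 Kcna genes, 4 Kcnc genes, 3 Kcnd genes or 3 Kcns genes had a region in either list. The length-standardised numbers with an island were 1.42 for Kcna, 0.799 for Kcnc, 0.593 for Kcnd and 0.545 for Kcns, and those with a MACS region were 0.494, 0.283, 0.203 and 0.209 in the same order. These types were picked out after their counts had been seen, and each number is small.

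Among the silent subunits, which pass current only in assembly with other Kv subunits, Kcng1 had 2 islands. Of these, 1 of 3600 bp crossed the deposited gene start and 1 of 7400 bp lay beyond the deposited end. The deposited body of Kcng1 was 7634 bp, against 21417 bp in the reference table, so the second island may lie within the longer gene. Kcng4, on chromosome 8, had 1 island of 2600 bp inside the gene and 2 MACS regions, at 122150000 and 122157000, both rounded to 1000 bp and both described as contained within the gene. At its rounded position, the first lay in an island of 3000 bp, from 122147200 to 122150199, whose end falls within the rounding step. The list pairs this island with the neighbour Adad2, and it overlaps Kcng4 by 2446 bp. The second, also as rounded, lay 3201 bp from the nearest island. Kcnv2 had 1 island of 1400 bp at the beginning of the gene.

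Kcnq1, which carries the slow delayed-rectifier current of the heart, had 4 islands of 1800 to 5400 bp in a gene body of 319.789 kb, a coverage of 3.88%. Of these, 3 lay between 3.9% and 14.2% of the gene's length, and 1 at 83.1% to 83.7%. The imprinted antisense transcript Kcnq1ot1 spans 33.2% to 59.2% of Kcnq1 in the reference table, and none of the islands lay there. Kcnq1ot1 was 1 of the 4 noncoding symbols of the rule, and no list named it or the other 3. Kcne1, the auxiliary subunit that slows Kcnq1 channels, had 3 islands on chromosome 16, from 92345600 to 92353999, from 92354600 to 92359799 and from 92360800 to 92366599. The first and second islands covered 95.5% of its 13.468 kb, both gene ends included, which was the highest share among the 30 genes. The third lay wholly upstream. Kcnh2, the channel of rapid cardiac repolarisation, had 1 island of 2800 bp near its start, and Kcnh1 and Kcnh6 had 1 each inside the gene.

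Calcium channel alpha-1 subunits form the pore and sense the voltage. All 3 low-threshold (T-type) genes carried islands. Cacna1g had 5, of 1800 to 4400 bp, which covered 21.0% of 65.808 kb, while Cacna1h and Cacna1i had 1 each, of 2200 and 2000 bp. Of the high-threshold genes, Cacna1a, the P/Q-type channel of synapses, had 8 islands of 1600 to 5200 bp. They were spread over a deposited body of 224.886 kb (9.87%), against 301621 bp for Cacna1a in the reference table. The MACS region of Cacna1a, at 87163800 on chromosome 8, lay 348 bp before the deposited gene end and 3201 bp beyond the last island. Cacna1s, the channel of skeletal muscle, had 3 islands, the last of 6400 bp across the gene end. Cacna1e had 1 island of 3000 bp in a deposited body of 333.402 kb, against 493980 bp in the reference table. Cacna1b, Cacna1c, Cacna1d and Cacna1f had none, and Cacna1f lies on chromosome X, where 0.311% of protein-coding genes did.

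Sodium channel alpha genes drive the upstroke of the action potential. Scn4a, the skeletal muscle channel on chromosome 11, had 4 islands of 3800 to 11400 bp that covered 59.1% of 30.798 kb. Among them, 1 crossed the deposited start and 1 the deposited end. The reference table gives Scn4a 48015 bp, so a crossed start or end may lie within the longer gene. Scn11a had 1 island of 7400 bp, from 119732600 to 119739999, across its start. The neuronal genes Scn1a, Scn2a, Scn3a and Scn8a had no island, and neither had Scn7a, Scn9a and Scn10a. These genes without an island were 110.5 to 176.1 kb long in the reference table, while Scn4a and Scn11a were 48.0 and 71.7 kb long there. The part of length in this difference was not tested. No sodium channel alpha gene had a MACS region.

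**Figure D3:**
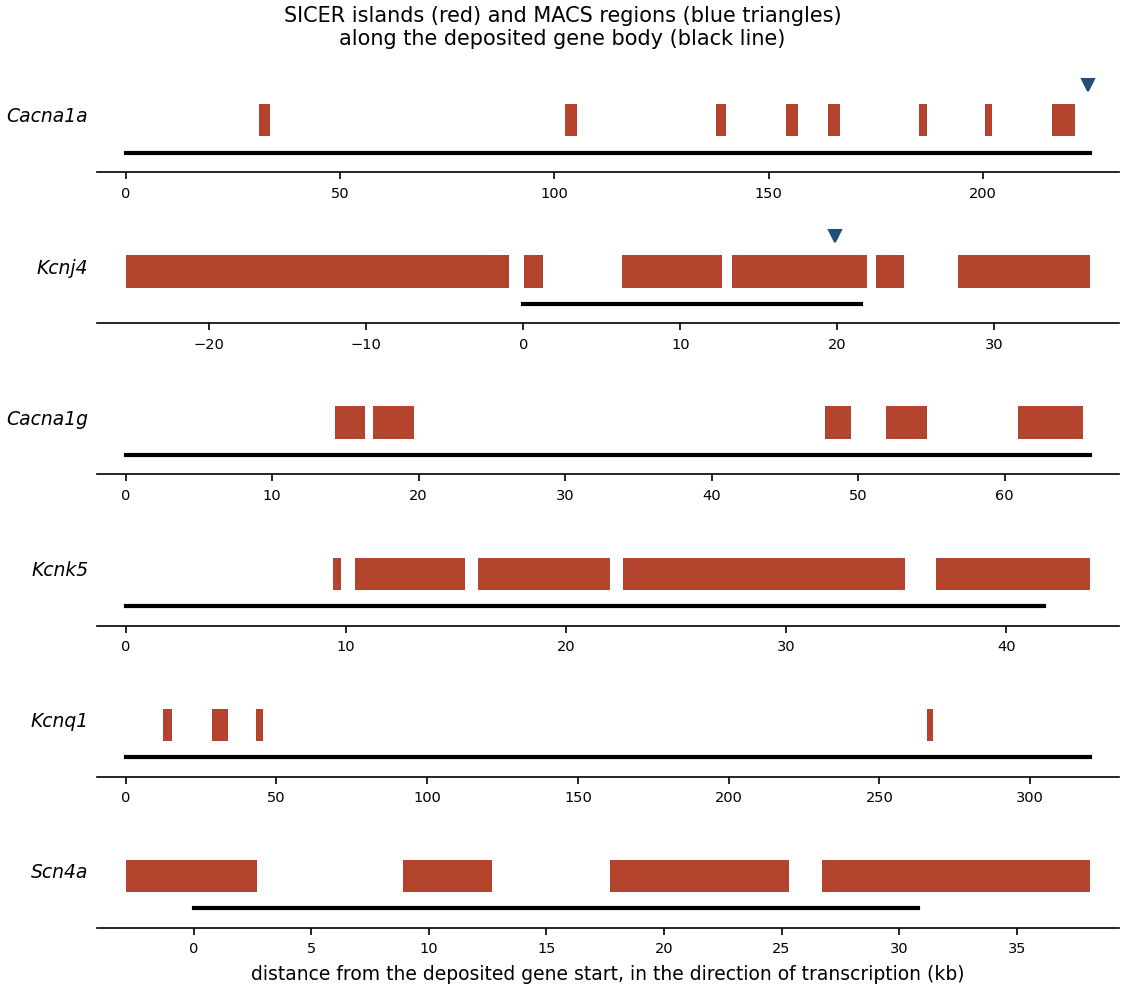
The maps show 6 channel genes with at least 4 SICER islands, each drawn along its own axis in kb from the deposited gene start, with islands as red blocks, MACS regions as blue triangles and the gene body as a black line. Islands fill most of the Kcnj4, Kcnk5 and Scn4a bodies (59.1% to 73.7%) and stand apart in Cacna1a and Kcnq1 (9.87% and 3.88%).

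Tandem-pore (K2P) channels leak potassium at rest. They held 3 of the 7 channel genes with a MACS region. This was 3 of the family's 14 genes (21.4%), with a length-standardised number of 0.953, against 6.14% of all protein-coding genes, a small count that was not tested. Kcnk3, an acid-sensitive channel, had 1 region on chromosome 5 from 30890600 to 30890700, contained within the gene and in an intron of Gm9899. Kcnk10 had 1 intronic region on chromosome 12 from 99813500 to 99813600. Kcnk12, a subunit that is silent alone, had 2 regions on chromosome 17, from 88145300 to 88145400, contained within the gene, and from 88196300 to 88196400 in an intron. These positions are rounded to 100 bp. None of these 4 regions lay in a listed island, and the nearest listed islands were 9001, 632800, 104301 and 155301 bp away in this order. Most MACS regions lay outside islands. Of all 1704, 521 (30.6%) lay in an island, and of the 10 of channel genes, 2 did. The K2P genes with islands were others. Kcnk5 had 5, the widest of 12800 bp, over 69.8% of 41.725 kb. Kcnk1 had 3 over 55.6% of 35.584 kb, from before the gene start to 76.4% of its length. Kcnk9 had 2, of which 1 crossed the deposited start, in a body of 34161 bp against 46742 bp in the reference table. Kcnk4 had 1 of 1800 bp across its end. No gene of this family was named by both lists, against 2.46% of all protein-coding genes.

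Inward rectifiers, which hold the resting potential, had islands at Kcnj4 and Kcnj12. Kcnj4, on chromosome 15, had 6 islands, of which 1, of 24400 bp from 79336600 to 79360999, lay wholly upstream and was the widest of any channel gene. The gene body of 21.528 kb was covered to 73.7%. Its MACS region at 79315800 lay inside the island from 79313800 to 79322399, near the gene end. It was the only channel gene with a MACS region inside an island paired with the same gene. Kcnj12 had 1 island of 12200 bp that covered 91.9% of its deposited body of 5.328 kb, including the start. The reference table gives this gene a length of 50706 bp.

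Of the calcium-activated potassium channels, Kcnn1 had 2 islands, of 13600 bp over 90.9% of the deposited body and of 13800 bp upstream of it. That body was 14960 bp, against 22534 bp in the reference table. Kcnn3 had 2, of 2000 bp upstream and of 5400 bp inside a gene of 152.331 kb. Kcnn4, the intermediate-conductance channel, had 2 over 40.3% of its body. The sodium-activated channel gene Kcnt1 had 2 islands inside the gene, over 32.7% of it. Kcnip3, a calcium-binding partner of Kv channels, had 2 islands inside the gene.

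**Figure D4:**
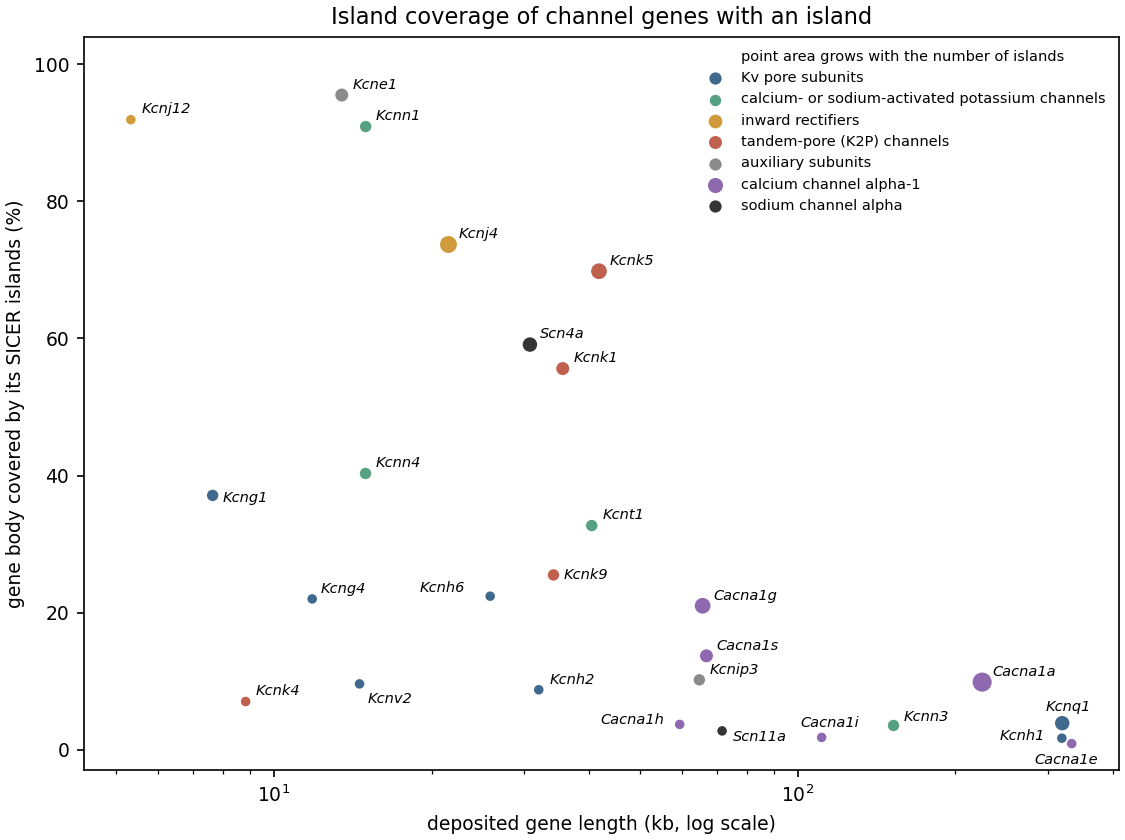
Share of the deposited gene body covered by the gene's own SICER islands (percent) against deposited gene length in kb on a log axis, for 27 channel genes with an island, coloured by family. Coverage ran from 0.900% in Cacna1e to 95.5% in Kcne1, and the 6 genes over 100 kb all lay under 10%.

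Islands of channel genes lay inside the gene more often than islands at large. Of the 86, 64 (74.4%) lay wholly inside the paired gene, against 46.9% of all 8242 islands. Another 7 (8.14%) crossed the gene start, against 12.3% of all islands, and 8 (9.30%) crossed the gene end, against 9.67%. Wholly upstream lay 4 (4.65%, against 12.3%) and wholly downstream 3 (3.49%, against 15.7%). Longer genes leave more room inside, and this share was not set for length. Inside islands were spread over the gene, with 31 of 64 midpoints nearer the start and 33 nearer the end. The median width was 4100 bp, against 4800 bp for all islands. The 7 genes with an island across the deposited start were Kcne1, Kcng1, Kcnj12, Kcnk1, Kcnk9, Scn4a and Scn11a. Of the 30 genes, 19 had at least 2 islands (63.3%), against 47.4% of the 3769 protein-coding genes with one. The 8 genes with at least 4 held 50 of the 86 islands (58.1%). Among the 3769 genes ranked by number of islands, those with 3 shared place 495. The share of islands held by genes with at least 4 was not computed for all genes.

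The covered share was also compared within length classes. Among genes of 20 to 100 kb with an island, the median covered share was 24.0% in 16 channel genes and 14.6% in 1540 protein-coding genes. The mean number of islands per gene was 3.50 and 2.24, while the medians were closer, 2.5 and 2.0. Medians of the covered share in the other classes follow. Over 100 kb it was 2.67% in 6 channel genes and 4.36% in 413 genes, and under 20 kb it was 38.7% in 8 and 28.2% in 1816. No test was made of these differences.

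Partner genes of these channels, from 5 fixed lists, had an island in 8 of 33 (24.2%), against a length-standardised number of 6.53, and a MACS region in 3, against 2.32. Calcium channel auxiliary subunits had 6 of the 8, at Cacna2d2, Cacna2d4, Cacnb1, Cacng1, Cacng4 and Cacng5. This was 6 of 16 genes, against a length-standardised number of 3.22. Hcn2, a pacemaker channel, and Ank3, an axonal anchor, were the others. None of the 4 sodium channel beta subunits had an island, against 0.808. These counts are small and were not tested. The MACS regions were at Cacnb1, Sptbn4 and Dpp10. Ligand-gated channel genes, which are also long (median 60.1 kb), had an island in 6 of 58 (10.3%), against a length-standardised number of 11.4. Solute carriers had 93 of 375 (24.8%), against 74.5.

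The chromosomes of the members differ in how many genes carry an island. On chromosome 8, where 35.5% of protein-coding genes had one, 4 of 5 channel genes did (Kcnn1, Cacna1a, Kcng4 and Kcnk1). On chromosome 11, with 31.5%, 4 of 10 did, and on chromosome 2, with 20.2%, 5 of 16. On chromosome 6, with 15.3%, none of 6 did. 4T1 is an aneuploid line, and the part of copy number in these counts was not tested.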

How the data were processed

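DNMT3B ChIP and input libraries were made from lung metastases. The submitters' processing notes name Bowtie2 2.10, MACS 1.4 and SICER as tools and mm10 as build. Any pooling of libraries before calling is not stated there. Per the file headers, the deposited lists hold positions, distances and gene names, with no count or score.

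The MACS list has 4304 lines, which were reduced to 1704 distinct regions. An end given as a question mark was set to the start. Its positions carry at most 6 significant digits. In the SICER list, each island is paired with 1 gene extended by 10 kb on each side, since all 8242 overlap lengths fit this. Of the 30 channel genes with an island, 1 had a deposited start or end within 1 kb of GRCm38. The deposited positions thus differ from the mm10 build (GRCm38) that the submitters name, and their build was not identified. The positions are given as deposited, and none was converted. In 19 of the 30 genes the deposited length was within 5% of the reference table. Island positions and covered shares refer to the deposited bodies, and can differ for the full gene. Gene names, lengths and biotypes came from the RefSeq table of GRCm38.p6, through transcript accession, symbol or unique synonym (99.6% of MACS names and 99.9% of islands matched).

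A gene counted as named by any region that lists it. Length-standardised numbers sum, over members, the share of all protein-coding genes in the same decile of length that were named. This step was tested on simulated data. Python 3.11.15 and pandas 2.3.3 were used. Members with a MACS region are named. Of the SICER genes, named are those with most islands, the widest islands, an island across the start or a MACS region, and the 5 longest members with no region. Other genes were named after their values were seen. The promoters shown were also chosen after the values were seen: the rule took only members with a MACS region at or within 1 kb upstream of the start, and gave no sequence. Some genes are not reported here by name, although the counts hold them. The members and lists were chosen with earlier results of these data known.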

Additional observations from a re-analysis of the deposited data

How the results depend on the processing

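The count of 7 channel genes with a MACS region fell to 4 when regions with equal start and end were left out and to 3 when only voltage-gated pore subunits were counted. The count of 30 with an island became 18 for voltage-gated pore subunits only and 11 for islands within 2 kb of the gene start. Of the 4 genes in both lists, 1 was left when a region and an island of the same gene had to share 1 bp. Other settings for genes with an island gave 21 to 30. Against the length-standardised number, over the settings tried for all 114 genes, the MACS ratio ran from 0.782 to 0.913 and the SICER ratio from 1.25 to 1.61. For voltage-gated pore subunits the MACS ratio was 0.698 by length and 0.780 within chromosome and length class, and the SICER ratios were 1.54 and 1.45. For the other 54 genes the MACS ratios were 1.10 and 0.784 and the SICER ratios 1.19 and 1.04. The settings for voltage-gated pore subunits, for islands near gene starts as a count and for wide islands as a ratio were chosen after seeing the data. The lists give no score, so a stricter threshold of the callers could be approached only by island width. Each island is paired with 1 gene, so it is not counted for a neighbour that it also overlaps. Islands paired with Prom2, Lypd5 and Adad2 also overlap Kcnip3, Kcnn4 and Kcng4, which have islands of their own. Channel genes without an island were not checked for such overlap, since the SICER list gives no position for them. No paired analysis was possible because called regions are given for the series as a whole. Leaving out a library could not be done either.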
